A study of Mus musculus with 3 samples.

Results

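CD201, also called EPCR (endothelial protein C receptor), is a surface protein encoded by Procr and used to purify blood-forming stem cells. Long-term hematopoietic stem cells (LT-HSCs) that carried at least 1 CD201 antibody tag were compared here with LT-HSCs that carried none. Cells were taken from the antibody table if they held at least 10 tags summed over 12 antibodies, which kept 3629 of 3724 cells. Of these, 1119 cells were CD201-tagged and 2510 were untagged. Because the CD201 count chose the groups, that count is described and not tested, and the chromatin and the other antibodies of the same cells are the measures that the choice did not use.

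Marrow came from females of wild-type genotype, 24 months old, and the LT-HSCs were sorted as LSK CD150+ CD48- CD34- cells. DOGMA-seq then measured open chromatin (ATAC), transcripts and antibody tags of each cell. Both groups share this age, sex, genotype and sort, and the labels name no treatment. The labels do not state how many mice were pooled. The 3 libraries came from 1 pool, so tagged and untagged cells are parts of 1 sample, cells are not replicates, and no test was run between them. All intervals are exact 95% intervals (Poisson for a sum of counts, binomial for a share, conditional binomial for a ratio) and cover counting error only. Fragments were scaled as FPM, the number per 1000000 nuclear fragments of the group. The summed ATAC depth was 11865602 nuclear fragments in tagged and 26625153 in untagged cells. RNA enters only as totals per cell, and Procr transcripts were not analysed here. Doublets were not removed.

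EPCR binds protein C and its activated form on the cell surface. On endothelium it helps thrombomodulin and thrombin to activate protein C, which limits clotting. On stem cells it takes part in their retention in the marrow, through the thrombin receptor PAR1, nitric oxide, Cdc42 and the integrin VLA4, and high EPCR is a mark of the cells with the most lasting repopulating activity. The comparison asks whether cells with a CD201 tag differ in their chromatin from cells without one. A split at 1 tag is a coarse measure of the amount of CD201, and the share of tags that were not bound to the cell was not measured.

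A CD201 tag is a short DNA sequence fixed to the antibody and counted in the antibody library. The tag of CD201 is shown with those of the antibodies that the results turn on and, last, that of CD163 as a rarely seen antibody, and each tag is in capitals throughout.
CD201: TATGATCTGCCCTTG
CD274: TCGATTCCACCAACT
CD61: TTCTTTACCCGCCTG
CD357: GGCACTCTGTAACAT
P2X7R: TGCTTCATTCATGTG
CD163: GACGCGCGTTGTCA
The set shows how far these short reads lie from one another. Compared base by base from the 5′ end, the CD201 tag differed from that of CD61 at 9 of 15 bases and from that of CD274 at 10. The nearest tag of the panel, that of CD27, differed from it at 7 bases.

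CD201 tags were few. The kept cells held 1501 of them, 1.31% of the 114345 tags of the 12 antibodies, with a mean of 0.414 per cell (0.393 to 0.435). At least 1 tag was found in 30.8% of cells (29.3 to 32.4). A single tag was found in 825 cells, 2 tags in 224, 3 in 56, 4 in 11, 5 in 2 and 6 in 1 cell. The tagged group therefore rests mainly on cells with 1 tag, and 294 cells, 8.10% (7.23 to 9.04), held 2 or more.

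The share of cells with a tag differed widely over the panel. In the study, antibodies that stained stem cells strongly were mixed with their unconjugated forms to balance detection. The shares therefore depend on each antibody and its dilution, and do not rank the amounts of the antigens or give the percentage of cells that carry them. The macrophage antigens CD163 at 1.96% (1.53 to 2.46), CD206 at 2.26% (1.80 to 2.80) and CD68 at 7.74% (6.89 to 8.66) were low, as was CD183 at 6.20% (5.44 to 7.03). CD201 lay between CD106 at 25.4% (23.9 to 26.8) and P2X7R at 36.5% (34.9 to 38.1). MERTK, also known from macrophages, was higher at 40.3% (38.7 to 41.9), and CD27 was at 56.5% (54.9 to 58.1). CD357 and CD61 were seen in 85.3% and 93.6% of cells and CD274 in all of them.

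As a description, the counts were set beside Poisson counts with one rate of CD201 per tag of the other antibodies. That rate gave 2441 cells with no tag, 930 with 1 and 258 with 2 or more, against 2510, 825 and 294 counted. Cells with none and cells with several tags were thus both more frequent than at a single rate, by a small margin. The plot of CD201 tags per cell shows both sets of numbers.

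**Figure D1:**
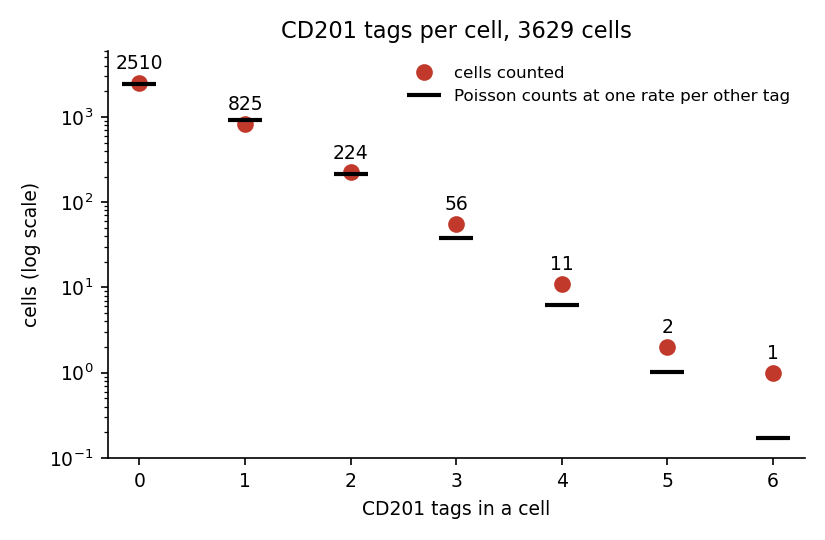
Number of cells (y axis, log scale) by the number of CD201 tags in the cell (x axis). Points are cells counted and bars are Poisson counts at one rate per tag of the other antibodies; 2510 cells had no tag against 2441, and 56 had 3 tags against 38.4.

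The chance of a CD201 tag went with the antibody depth of a cell. In the cells with 9 to 18 tags of the other 11 antibodies, 24.6% (21.4 to 28.2) were CD201-tagged, and in those with 41 to 170 such tags 38.8% were (35.3 to 42.4). The CD201 tags count toward the minimum of 10, so the 4 kept cells with 9 other tags had to be tagged, and without them the first share was 24.2% (20.9 to 27.7). The number of CD201 tags per 1000 other tags went the other way, from 21.6 in the first of these classes (21.2 without those 4 cells) to 10.3 in the last. ATAC depth showed no such order, with shares of 30.4%, 33.6%, 33.0%, 26.9% and 30.3% over 5 classes from the fewest to the most fragments.

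Tagged and untagged cells were alike in ATAC and RNA depth. Median nuclear fragments were 10150 in tagged and 10350 in untagged cells, median RNA UMIs 1954 and 1984, and median genes detected 1183 and 1209. The tags of the other 11 antibodies had a median of 31 in tagged and 28 in untagged cells, with quartiles of 22 to 41 and 21 to 37. Cells with an excess of overlapping fragments, which can be pairs of cells, made up 8.67% (7.09 to 10.5) of tagged and 6.22% (5.30 to 7.23) of untagged cells. Antibody depth thus moved with the CD201 tag. Most of this depth was CD274, with a mean of 23.4 tags in tagged and 20.4 in untagged cells. For all 11 other antibodies the means were 33.7 and 29.9. Classes of antibody depth therefore follow CD274 in large part. Values with depth matched are given beside the antibodies below.

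The other antibodies were compared as mean counts and as counts per tag of the remaining 10 antibodies. CD274 (PD-L1), an inhibitory ligand of T cells, had a mean of 23.4 tags (23.1 to 23.6) in tagged and 20.4 (20.2 to 20.5) in untagged cells. Per remaining tag, the log2 ratio of tagged over untagged cells was 0.08 (0.06 to 0.10). CD274 was thus slightly higher on tagged cells on both scales. The second value was 0.02 with untagged cells weighted to the antibody and ATAC depth of tagged cells. That antibody depth counts CD274 itself, which held 77229 tags, more than any other antibody. The weighting therefore cannot separate CD274 from depth.

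CD61, integrin beta 3, had means of 4.13 (4.01 to 4.25) and 3.601 (3.53 to 3.68). Its log2 ratio per remaining tag was 0.03 (-0.02 to 0.08), within counting error of 0. CD27, a TNF receptor family member of early progenitors and lymphocytes, had means of 0.985 and 0.877 and a log2 ratio per remaining tag of -0.01 (-0.11 to 0.10). Both were higher per cell in tagged cells, and their scaled intervals included 0. Most of their remaining tags were CD274 tags, so this scale sets them largely against CD274. As means per cell, the log2 ratio was 0.198 (0.15 to 0.25) for CD61 and 0.198 (0.18 to 0.22) for CD274. The scaled values of CD61 and CD274 thus have unlike denominators.

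CD357 (GITR), another TNF receptor family member, behaved differently. Its means were 3.32 (3.22 to 3.43) in tagged and 3.23 (3.16 to 3.30) in untagged cells, and per remaining tag its log2 ratio was -0.15 (-0.20 to -0.09). P2X7R, an ATP-gated ion channel, had means of 0.546 (0.504 to 0.591) and 0.570 (0.541 to 0.6004), with -0.24 (-0.38 to -0.10) per remaining tag. These 2 antibodies did not share the higher counts of tagged cells. Most of their remaining tags were CD274 tags as well, so their scaled values are set largely against CD274. With depth matched, CD357 stood at -0.11 and P2X7R at -0.20.

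The remaining 6 antibodies had intervals that included 0 on the scaled measure. They ran from -0.23 (-0.98 to 0.45) for CD206, the macrophage mannose receptor, to 0.21 (-0.46 to 0.83) for CD163, the haemoglobin scavenger receptor. CD68 was at -0.07, CD106 (VCAM1) at -0.06, CD183 (CXCR3) at -0.02 and MERTK, a receptor for apoptotic cells, at -0.06. For CD163 and CD206 the tagged cells held 34 and 25 tags in all, so only large differences could have been seen.

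**Figure D2:**
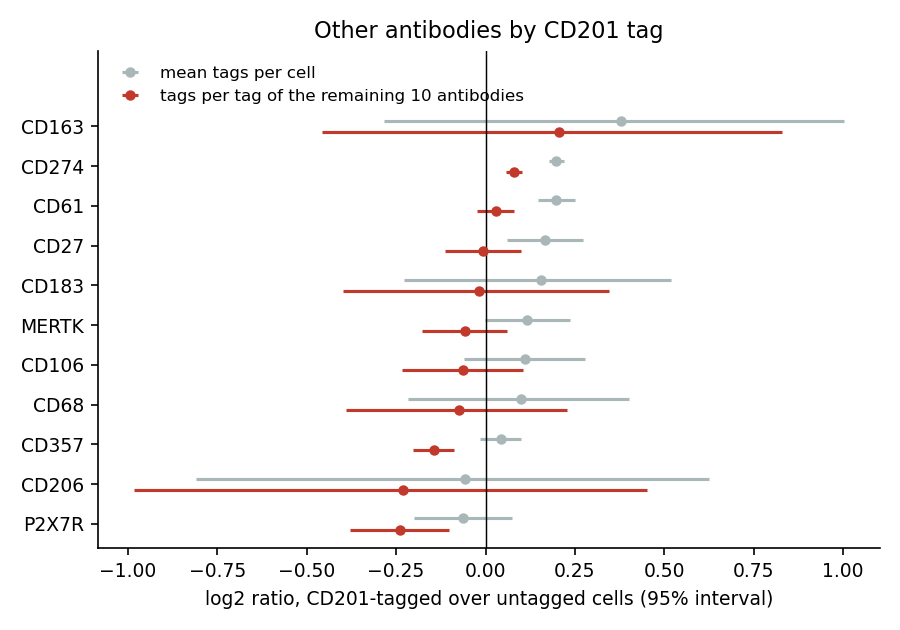
Log2 ratio of CD201-tagged over untagged cells (x axis) for the 11 other antibodies (y axis), as mean tags per cell (grey) and per tag of the remaining 10 antibodies (red), with exact 95% intervals. Scaled, CD274 lies above 0 at 0.08, and CD357 at -0.15 and P2X7R at -0.24 lie below it.

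Cells with 2 or more CD201 tags gave a check on the cut. Mean CD274 was 20.4 in untagged cells, 22.6 (22.3 to 22.9) in cells with 1 CD201 tag and 25.4 (24.8 to 26.0) in cells with 2 or more. Per 1000 remaining tags, CD357 had 121, 113 and 98.7 tags in these groups, and P2X7R had 19.4, 16.9 and 15.3. CD61 had 137, 142 and 135. The groups with 1 and with 2 or more share the untagged cells as their reference.

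Procr itself lies on chromosome 2 at 155751117 to 155755471 on the plus strand (mm10, GENCODE M21). Its gene with 2 kb upstream held 136 fragments in tagged and 317 in untagged cells, which is 11.5 FPM (9.62 to 13.6) and 11.9 (10.6 to 13.3). The log2 ratio was -0.05 (-0.36 to 0.24). No difference was detectable at this depth. Procr was below the minimum of 500 fragments set for the ranking across genes.

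At the Procr promoter, 1 kb on each side of the start, 94 and 210 fragments gave 7.92 (6.40 to 9.70) and 7.89 (6.86 to 9.03) FPM, a log2 ratio of 0.01 (-0.36 to 0.36). A fragment there was seen in 82 of 1119 tagged cells, 7.33% (5.87 to 9.02), and in 181 of 2510 untagged cells, 7.21% (6.23 to 8.29). In cells with 2 or more CD201 tags the promoter had 8.60 (5.67 to 12.5) FPM. The promoter was open in both groups to about the same level, with overlapping intervals.

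The 150 bases before the annotated Procr start (RefSeq sequence, GRCm38, chr2:155750967-155751116, plus strand) are shown because the promoter comparison rests on this region, with a match to the AP-1 letters TGANTCA in capitals.
Procr upstream: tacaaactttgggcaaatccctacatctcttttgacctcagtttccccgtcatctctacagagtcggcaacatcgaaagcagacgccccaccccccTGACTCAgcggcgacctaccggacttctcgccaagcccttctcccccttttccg
The match begins 54 bases before the start. TGANTCA was present on either strand in the first 150 bases of 4.0% of 32851 RefSeq promoter sequences. In this stretch the GATA letters, AGATAA, had no match. The same held for the GC box, searched as GGGCGG on both strands. The E-box, searched as CAGCTG, had none either. For RUNX the letters were TGTGGT, again with no match. The ETS core was searched as AGGAAG and was not present.

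The most open place within 50 kb of the Procr start was not the promoter but an intergenic site upstream of it. The 1 kb window at 155743001 to 155744000, about 7.62 kb before the start, held 301 fragments in tagged and 643 in untagged cells, 25.4 (22.6 to 28.4) and 24.15 (22.3 to 26.1) FPM, with a log2 ratio of 0.07 (-0.13 to 0.27). The window just before it, at 155742001, had a log2 ratio of 0.12 (-0.14 to 0.38). The 300 bases with the most transposase insertions there held 484 and 1014 insertions, a log2 ratio of 0.10 (-0.06 to 0.26). They are shown because the Procr region is most open here, with matches to the GATA, E-box and ETS letters on either strand in capitals (GRCm38, chr2:155742981-155743280, plus strand).
Procr upstream site: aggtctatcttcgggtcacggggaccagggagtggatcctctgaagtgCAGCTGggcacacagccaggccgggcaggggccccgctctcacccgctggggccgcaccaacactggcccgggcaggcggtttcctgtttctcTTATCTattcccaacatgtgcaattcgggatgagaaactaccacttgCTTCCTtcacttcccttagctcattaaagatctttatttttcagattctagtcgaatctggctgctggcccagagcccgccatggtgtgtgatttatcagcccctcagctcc
In RefSeq promoter sequences, whose length of 300 bases is the same, the GATA letters were present in 11.2%, the E-box letters in 16.3% and the ETS letters in 35.4%. The AP-1, GC box and RUNX letters had no match in the site. Such matches describe letters and not binding.

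Over the whole 100 kb, tagged cells held 1544 and untagged cells 3520 fragments, a log2 ratio of -0.02 (-0.11 to 0.06). Of the 10 windows with at least 100 fragments, none was past 1.5-fold, and their log2 ratios ran from -0.32 to 0.29. Over all 100 windows the interval of the ratio left out 0 in 2, both lower in tagged cells and both with few fragments. Of 17108 genes with at least 500 fragments, the interval lay above 0 in 4.62% and below it in 3.11%. No such share over windows is given here, and the 2 are not read as a difference at Procr. The window next to the open site, at 155744001, held 5 fragments in tagged and 39 in untagged cells, 0.421 (0.137 to 0.983) and 1.465 (1.04 to 2.00) FPM, a log2 ratio of -1.68 (-3.50 to -0.45). The window at 155786001 held 0 and 12. A count of 0 allows, by its exact interval, up to 0.311 FPM in tagged cells, against 0.451 (0.233 to 0.787) in untagged cells. Another open window, at 155775001 in Mmp24 next to that gene's start, was at -0.03 (-0.29 to 0.22).

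**Figure D3:**
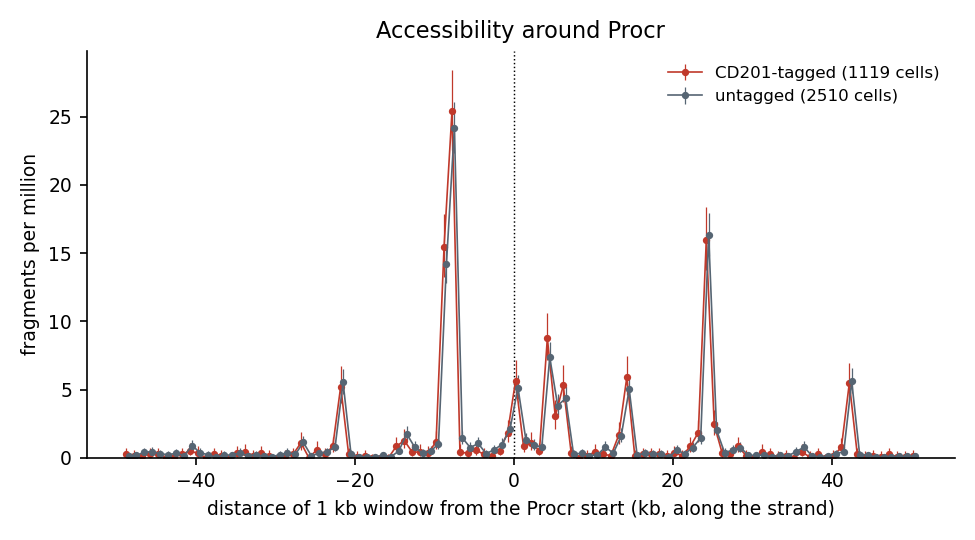
FPM (fragments per 1000000 nuclear fragments) (y axis, with exact 95% Poisson intervals) in 1 kb windows by distance from the Procr start in kb (x axis), for CD201-tagged (red) and untagged cells (grey), drawn slightly apart. The profiles overlap at the open windows, and the highest, 7.62 kb upstream, is at 25.4 and 24.15 FPM.

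The pathway around EPCR showed the same. Of 21 listed genes, 17 had at least 500 fragments, and none was past 1.5-fold. Over all 17108 genes with at least 500 fragments, 0.0% were past that fold. The median log2 ratio was -0.01 over the 17 and 0.01 over all genes, with 7 members above 0 and 10 below.

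Among the ligand and its activators, Proc, which encodes protein C, held 100 and 228 fragments, 8.43 and 8.56 FPM. Thbd, encoding thrombomodulin, held 409 and 922 fragments (34.5 and 34.6 FPM, log2 ratio -0.01, -0.18 to 0.16), and Pros1, encoding the cofactor protein S, was at -0.06 (-0.27 to 0.15). The gene of thrombin, F2, had 5.22 and 5.26 FPM.

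Among receptors, F2r, which encodes PAR1, held 523 and 1112 fragments, 44.1 and 41.8 FPM (log2 ratio 0.08, -0.07 to 0.23). F2rl3, encoding PAR4, was at 0.08 (-0.08 to 0.25), F2rl1 at -0.07 (-0.34 to 0.19) and F2rl2 at -0.01 (-0.26 to 0.24). S1pr1, a sphingosine 1-phosphate receptor reached by protein C signalling, was the highest member at 0.13 (-0.07 to 0.32).

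Downstream, Cdc42 held 1074 and 2550 fragments, 90.5 and 95.8 FPM, with a log2 ratio of -0.08 (-0.19 to 0.02). The subunits of VLA4, Itga4 and Itgb1, were at -0.02 (-0.15 to 0.11) and -0.05 (-0.19 to 0.09). Nos3, a nitric oxide synthase, was at -0.03 (-0.19 to 0.13), and Adam17, a protease that sheds surface proteins, at -0.10 (-0.25 to 0.05). The clotting factor and inhibitor genes F3, Tfpi, F5 and F8 lay between 0.00 and 0.11, and Plg, encoding plasminogen, was lowest at -0.15 (-0.44 to 0.13). Serpina5, an inhibitor of activated protein C, held 4 and 8 fragments, too few for a ratio to be read. The interval of every member named here includes 0.

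The genes that encode the other antigens were also close. Cd274 held 425 and 877 fragments, 35.8 (32.5 to 39.4) and 32.9 (30.8 to 35.2) FPM, with a log2 ratio of 0.12 (-0.05 to 0.29), and 39.5 (32.9 to 47.1) FPM in cells with 2 or more CD201 tags. Itgb3 was at 0.03 (-0.07 to 0.13), P2rx7 at -0.08 (-0.20 to 0.03) and Tnfrsf18, which encodes CD357, at -0.15 (-0.51 to 0.20). Cd27 was at -0.03, Cd68 at 0.20, Cxcr3 at 0.16, Mertk at 0.07, Cd163 at 0.04, Mrc1 at -0.05 and Vcam1 at -0.25. None of these 11 genes had an interval that left out 0 in tagged cells. With 2 or more CD201 tags, Cd68, which encodes a lysosomal protein of macrophages, had 56 fragments and was at 0.50 (0.05 to 0.90). It was the only one of these 11 genes whose interval left out 0 there. In all tagged cells, the interval lay above 0 in 4.62% of 17108 genes and below it in 3.11%. That share is not given for cells with 2 or more tags, so this 1 gene is not read as a result. Other genes of macrophage antigens were at -0.02 (-0.53 to 0.43) for Cd163, -0.24 (-0.58 to 0.07) for Mrc1 and -0.04 (-0.26 to 0.16) for Mertk.

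Across the genome, no gene of 17108 differed by 1.5-fold. In the 294 cells with 2 or more CD201 tags, which hold fewer fragments, 30 genes of 15760 did, 7 higher and 23 lower, and with a minimum of 200 fragments in place of 500, 22 genes of 20541 did in tagged cells. The log2 ratios ran from -0.52 to 0.44, their median size without sign was 0.06, and the median half-width of an interval was 0.15. At 1.2-fold, 94 genes (0.549%) were higher and 132 (0.772%) lower in tagged cells. The scatter of ratios narrowed as fragments increased, as the plot of genes by fragment number shows.

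**Figure D4:**
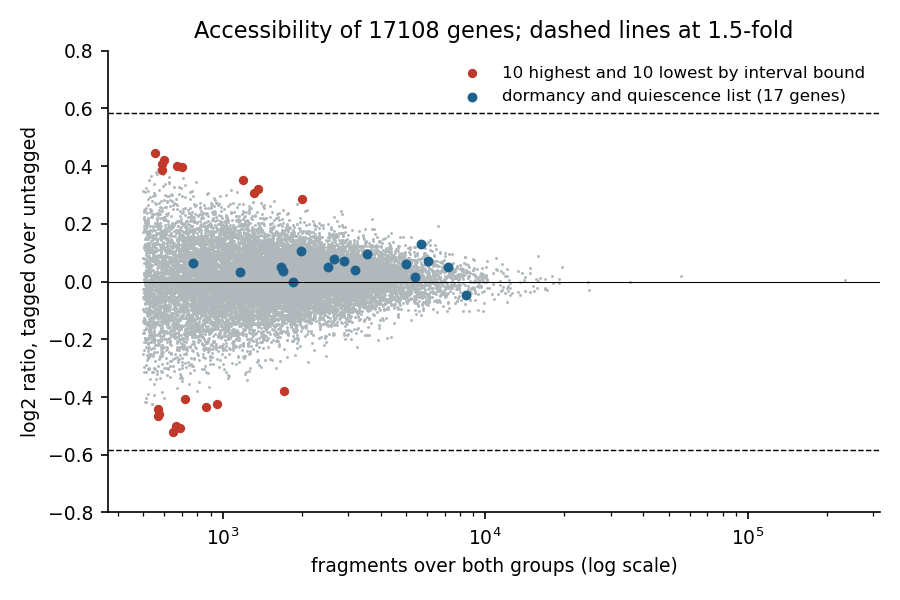
Log2 ratio of fragments in CD201-tagged over untagged cells (y axis) by the fragments of a gene over both groups (x axis, log scale) for 17108 genes (grey). All points lie inside the dashed lines at 1.5-fold; the 20 genes named by interval bound are red, and the 17 genes of the dormancy list, 15 of them above 0, are blue.

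Ranked by the lower bound of the interval, the 10 highest genes were Gm40477, Samd5, Ntf5, Gm20383, Gm19590, Nptx2, Itga3, AC163635.1, 1700036A12Rik and Tspan1. Gm40477, a long noncoding RNA gene (chromosome 12, 85429110 to 85436249), held 209 and 345 fragments, 17.6 and 13.0 FPM, with the highest log2 ratio at 0.44 (0.19 to 0.69). Samd5 (chromosome 10, 9622936 to 9675208) held 435 and 766, with 0.35 (0.18 to 0.52). Itga3, the integrin alpha 3 subunit of laminin receptors (chromosome 11, 95044474 to 95076801), held 489 and 879, with 0.32 (0.16 to 0.48). In the cells with 2 or more CD201 tags, which are part of the tagged cells on which the genes were ranked, these 3 stood at 0.42, 0.45 and 0.34. Over all 10 the values there ran from 0.06 (-0.44 to 0.49) for Nptx2, encoding neuronal pentraxin 2, to 0.63 (0.25 to 0.98) for Gm19590.

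The 10 with the lowest upper bound were Gm12968, H2afy2, Hormad2, Ppp4r1, Smpd4, Nr6a1os, Ugt8a, Gm34589, Aifm3 and Erfe. H2afy2, the histone variant macroH2A2 (chromosome 10, 61738665 to 61784147), held 164 and 524 fragments, 13.8 and 19.7 FPM, with -0.51 (-0.77 to -0.25). Ppp4r1, a regulatory subunit of protein phosphatase 4 (chromosome 17, 65782573 to 65841926), held 438 and 1279, with -0.38 (-0.54 to -0.22). Erfe, the erythroid hormone erythroferrone (chromosome 1, 91366430 to 91374217), held 181 and 539, with -0.41 (-0.66 to -0.16). With 2 or more CD201 tags these 3 were at -0.57, -0.67 and -0.69, and the 10 ran from -0.89 for Gm12968 to -0.39 (-0.88 to 0.04) for Hormad2. All 20 are the ends of a ranking of 17108 genes, and no test separates them from the rest.

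Promoters gave 15 past 1.5-fold of 15397 with at least 200 fragments (0.0974%), 2 higher (0.013%) and 13 lower (0.0844%). With 2 or more CD201 tags, 223 of 14491 were past 1.5-fold, 89 higher and 134 lower. At 1.2-fold in tagged cells, 460 (2.99%) were higher and 371 (2.41%) lower. Among those higher, the Pgpep1l promoter had 99 and 146 fragments and a log2 ratio of 0.61 (0.22 to 0.98). The lowest was Lrrc75aos2, an antisense gene (chromosome 11, 62605766 to 62607748), with 40 and 191 fragments, 3.37 and 7.17 FPM, and -1.08 (-1.62 to -0.59). Tmem178 and Gpr139 followed at -0.82 and -0.88. The Smpd4 promoter, whose fragments are also part of its gene, was at -0.59 (-0.90 to -0.30), and Smpd4 encodes a sphingomyelinase.

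Distal windows of 1 kb, with no gene start within 2 kb, gave 60 past 1.5-fold of 14626 with at least 200 fragments (0.41%), 26 higher (0.178%) and 34 lower (0.232%). With 2 or more CD201 tags, 421 of 9663 were past 1.5-fold, 200 higher and 221 lower. At 1.2-fold in tagged cells, 1375 (9.4%) were higher and 1040 (7.11%) lower. Scaled by promoter fragments, 23 windows were higher and 49 lower by 1.5-fold. The highest lower bound was in an intron of Capzb, an actin capping subunit (chromosome 4, 139214001 to 139215000), with 95 and 121 fragments, 8.01 and 4.54 FPM, and a log2 ratio of 0.82 (0.41 to 1.22). The lowest upper bound was in an intergenic window whose nearest gene is Gmnn, encoding the replication inhibitor geminin (chromosome 13, 24776001 to 24777000), with 41 and 170 fragments and -0.87 (-1.42 to -0.39). A window over exon and intron of Mmp9, a matrix protease (chromosome 2, 164948001 to 164949000), held 86 and 312 fragments, with -0.69 (-1.05 to -0.34). No window with at least 500 fragments was past 1.5-fold, among 3001.

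Gene lists were described by counts and medians beside all genes tested. None of the members of the 21 lists with enough fragments was past 1.5-fold, as was the case for 0.0% of all genes. List medians lay between -0.04 for the MUL panel of the study, with 4 genes, and 0.09 for erythroid genes, with 7 of 15 genes.

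Dormancy and quiescence genes, which hold stem cells out of the cell cycle, had 17 of 18 members with enough fragments, 15 of them above 0, with a median of 0.05 against 0.01 over all genes. Of all genes, 9139 lay above 0 and 7969 below. The highest member was Rarg, a retinoic acid receptor, with 1871 and 3834 fragments, 158 and 144 FPM, and 0.13 (0.05 to 0.21). Foxo1 was at 0.10 (-0.01 to 0.20), Txnip, an inhibitor of thioredoxin, at 0.11 (-0.03 to 0.24), and Egr1, an immediate early factor that restrains division, at 0.07 (-0.01 to 0.15). Smad3 was lowest at -0.05 (-0.11 to 0.02). With 2 or more CD201 tags the median was 0.10. Scaled by promoter fragments it was 0.03, as tagged cells had slightly more of their fragments in promoters. The median of all genes was lower under that scaling as well.

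Stem cell identity genes had 26 of 28 members with enough fragments, 15 above 0, and a median of 0.02. Slamf1, which encodes the sorting antigen CD150, was the highest, with 446 and 839 fragments, 37.6 and 31.5 FPM, and 0.26 (0.09 to 0.42). Kit, the stem cell factor receptor, was at 0.00 (-0.09 to 0.08), and the transcription factor genes Mecom, Hlf and Meis1 at 0.02, -0.07 and -0.04. Robo4 was lowest at -0.14 (-0.37 to 0.09). Ly6a, encoding the sorting antigen Sca-1, held 62 and 174 fragments, below the minimum of 500.

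Megakaryocyte and platelet genes had 16 of 20 members with enough fragments and a median of 0.02. Pf4, platelet factor 4, was lowest at -0.24 (-0.48 to -0.0014) and Gp9, a subunit of the von Willebrand factor receptor, was at -0.23 (-0.44 to -0.02). Gata1, a factor of erythroid and megakaryocyte cells, held 285 and 747 fragments, 24.0 and 28.1 FPM, and was at -0.22 (-0.43 to -0.03), whereas Itga2b, integrin alpha IIb, was at 0.13 (0.04 to 0.21). Members of this list thus lay on both sides of 0. Vwf, of the PLT panel of the study, held 2509 and 5833 fragments and was at -0.05 (-0.12 to 0.02).

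Genes known to rise in old stem cells had 19 of 21 members with enough fragments and a median of 0.04. Its ends were neighbours on chromosome 8, the metallothionein genes Mt1 at 0.33 (0.08 to 0.58) and Mt2 at -0.25 (-0.53 to 0.02). DNA replication and mitosis genes had 24 of 25 members and a median of 0.03, from Mki67 at -0.14 (-0.28 to 0.0022) to Bub1, a spindle checkpoint kinase, at 0.18 (0.01 to 0.34). The member below the minimum, Tyms, encoding thymidylate synthase, held 65 and 218 fragments and was at -0.57 (-1.002 to -0.17). AP-1 and immediate early genes had all 16 members and a median of 0.05, from Egr2 at -0.06 to Zfp36, which encodes an mRNA decay factor, at 0.11 (0.02 to 0.19).

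Homing and niche adhesion genes, the group in which EPCR is known to act, had 23 of 24 members and a median of -0.02, 9 above 0 and 14 below. Cxcr4, the receptor for the niche chemokine, was at -0.08 (-0.22 to 0.06) and Rac1, a GTPase of cell movement, was lowest at -0.14 (-0.26 to -0.03). Lymphoid and multipotent progenitor priming genes had all 14 members and a median of 0.01, with Flt3 at -0.10 (-0.23 to 0.02).

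Markers of other cell types were level between the groups. Summed FPM in tagged and untagged cells were 401.7 and 391.8 over 7 of 15 erythroid genes, 460 and 458 over 9 of 16 myeloid genes, 289 and 284 over 7 of 15 macrophage genes, 220 and 225 over 5 of 12 B cell genes, 257 and 255 over 7 of 15 T and NK cell genes, 667 and 651 over 16 of 18 endothelial genes, which express EPCR in vessels, and 577 and 566 over 10 of 13 stromal genes. Their medians lay between 0.00 for myeloid and 0.09 for erythroid genes. Of the 60 genes of these lists with at least 500 fragments, the interval left out 0 in 3 above it and 3 below, and over all 17108 genes in 4.62% above it and 3.11% below. The 3 below were Cd5 at -0.33 (-0.59 to -0.09), Sox7 at -0.28 (-0.56 to -0.0039) and Gfi1 at -0.19 (-0.36 to -0.02). Above were Mmrn2 at 0.27 (0.02 to 0.52), Kdr, a receptor for vascular endothelial growth factor, at 0.24 (0.09 to 0.38) and Tfrc, the transferrin receptor, at 0.17 (0.02 to 0.31). Of the members with fewer fragments, Sele, encoding E-selectin, held 32 and 115 fragments and was at -0.66 (-1.29 to -0.10).

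The kinds of fragments were nearly the same. Promoters held 36.96% of fragments in tagged, 36.40% in untagged cells and 37.35% in cells with 2 or more CD201 tags. Distal fragments made up 23.3%, 23.6% and 23.1%, and fragments below 150 bp 33.4%, 33.2% and 33.6%. Per cell, the median percentage lying in peak regions was 68.1% in tagged cells (quartiles 66.0 to 70.2) and 67.3% in untagged cells (65.2 to 69.7). By CD201 count, that median was 67.3% with none, 67.9% with 1 and 68.6% with 2 or more tags. The promoter, distal and length shares differed by more than counting error over fragments. That error treats fragments as independent, although many come from the same cell. The medians for peak regions have no interval. The differences were smaller than the spread between single cells, which does not measure the error of a group value.

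ATAC clusters, made without any antibody, differed in their share of CD201-tagged cells. They were made on components 2 to 30 of the ATAC windows, and component 2 went with ATAC depth (Spearman's rho of 0.896 with log fragments over 3629 cells), so these clusters in part follow depth. At resolution 0.5 there were 4 clusters, and the tagged share was 28.9% (26.5 to 31.4) of 1318 cells in cluster 1, 34.4% (31.6 to 37.3) of 1108 in cluster 2, 28.8% (25.8 to 31.9) of 889 in cluster 3 and 32.2% (27.0 to 37.6) of 314 in cluster 4. The interval of cluster 2 lay above that of cluster 1. Cells with 2 or more tags made up 6.45% (5.18 to 7.91), 10.1% (8.40 to 12.04), 6.86% (5.29 to 8.73) and 11.5% (8.16 to 15.5).

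At resolution 1.0, a listed alternative, cluster 6 with 334 cells had 16.8% tagged (12.9 to 21.2), against 28.4% to 35.2% in the other 5 clusters. It was singled out after this share was seen. With 2 or more tags were 2.99% (1.445 to 5.44) of its cells, against 6.02% to 10.7%. Clustering on components 3 to 30, of which the first had a rho of -0.07 with log fragments, gave a cluster of 258 cells with 18.99% tagged (14.4 to 24.3), against 29.0% to 35.7% in the other 3. Weighted to the antibody depth of all cells, it had 24.98%, and the next lowest had 28.5%.

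**Figure D5:**
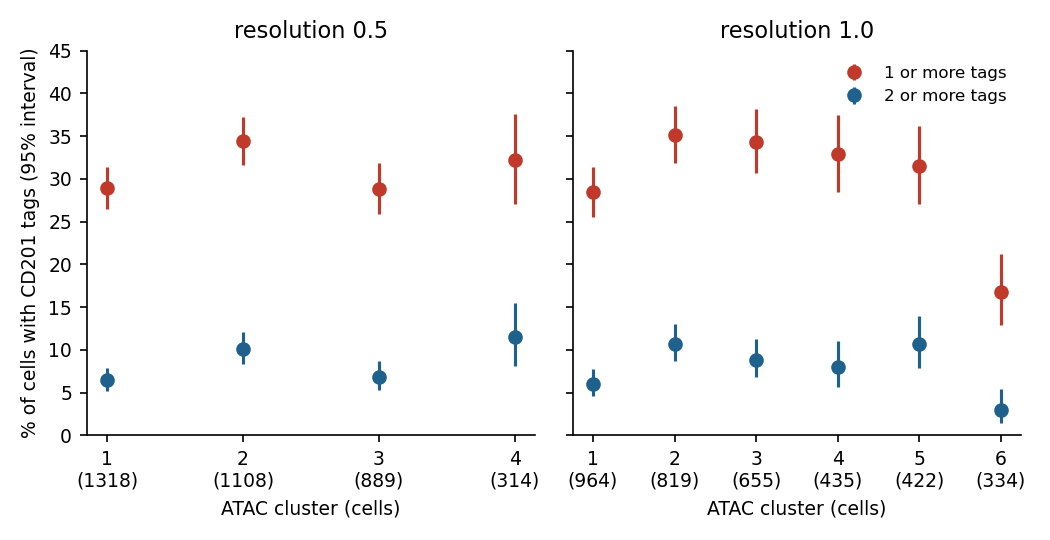
Percent of cells with CD201 tags (y axis, with exact 95% binomial intervals) in each ATAC cluster (x axis, cells in brackets) at 2 clustering resolutions, for 1 or more tags (red) and 2 or more (blue). Cluster 6 at resolution 1.0 is lowest, at 16.8% and 2.99%.

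The cells of this cluster also carried fewer tags of other antibodies. Their median was 18.5 tags of the other 11 antibodies, against 27 to 32 in the other clusters, and mean CD274 was 12.1 (11.8 to 12.5) against 19.9 to 23.7. CD357 and MERTK were not low, with means of 3.54 and 0.910 against ranges of 2.57 to 4.07 and 0.634 to 0.850. The classes of other tags used next thus follow CD274 in large part. In the cells with 9 to 18 other tags, 16.8% (11.4 to 23.3) of 167 cells of the cluster and 27.5% (23.5 to 31.7) of 470 other cells were CD201-tagged. With 19 to 24 the shares were 15% (7.998 to 24.7) of 80 and 30.2% (26.6 to 34.0) of 613, and with 25 to 31 they were 10.7% (4.03 to 21.9) of 56 and 30.4% (27.1 to 33.8) of 764. In the deeper classes the cluster had few cells and wide intervals, with 25% (7.27 to 52.4) of 16 against 32.5% at 32 to 40 tags, and 40% (16.3 to 67.7) of 15 against 38.8% at 41 to 170. Over the 5 classes of other tags weighted as in all cells, the share was 21.5% in the cluster and 27.4% to 35.4% in the others, and the 2 classes with few cells weigh on the first value. Its cells had a median of 11220 fragments and 2556 RNA UMIs, and 13.5% of them had an excess of overlapping fragments. Without such cells the share was 15.9% (11.9 to 20.7).

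Chromatin defined the cluster, so its leading genes are a description. It was led by Gata1, the erythroid and megakaryocyte factor (chromosome X, 7959260 to 7978071), with 240 fragments, 60.9 FPM against 22.9 in other cells, and a log2 ratio of 1.41. By lower bound, Tacr1 at 1.12, Hist1h2ak at 1.08, Tmem184a at 1.03, Hist1h2bn at 1.03 and Mfsd2b at 1.03 followed. Hist1h2ak and Hist1h2bn are core histone genes that lie side by side, so that fragments of one can count for the other. Mfsd2b is a sphingosine 1-phosphate transporter of red cells and platelets. Rarg was among the 10 lowest genes of the cluster at -0.62 (-0.77 to -0.47). Of other genes that led their lists in CD201-tagged cells, Slamf1 was at 0.35 (0.10 to 0.59) and Bub1 at 0.33 (0.08 to 0.56) in the cluster, so these did not share the direction of Rarg. Procr held 35 fragments there, 8.88 FPM, with a log2 ratio over other cells of -0.43 (-0.99 to 0.05). Procr and the CD201 share did not go together in all clusters. Cluster 3 at resolution 1.0 had the lowest Procr value there, 7.81 FPM and -0.66 (-1.15 to -0.24), with 34.4% of its cells tagged. At resolution 0.5, cluster 3 had both the lowest Procr value, -0.69 (-1.08 to -0.33), and the lowest share, 28.8%. Cluster 4 there had the highest Procr value, 0.58 (0.13 to 0.98), with 32.2%. With components 3 to 30, the cluster with 18.99% tagged also had the lowest Procr value, 9.11 FPM and -0.37 (-1.005 to 0.15). The highest there was 0.45 (0.01 to 0.85), with 31.2% tagged. Of the 7 erythroid genes with enough fragments, Epor, the erythropoietin receptor gene, was past 1.5-fold at 0.84 (0.55 to 1.11), Klf1 was lowest at -0.30 (-0.55 to -0.06), and the median was 0.21. Of the 16 megakaryocyte and platelet genes only Gata1 was past 1.5-fold, and the median was 0.07. Members lay on both sides of 0, with Pf4 at 0.57 (0.26 to 0.87) and Itga2b at -0.19 (-0.34 to -0.06). Of 24 DNA replication and mitosis genes none was past 1.5-fold, and their median was 0.19. They ran from Aurkb at -0.10 (-0.48 to 0.25) to Rrm1 at 0.55 (0.32 to 0.78). Between them, Mki67 was at 0.45 (0.26 to 0.63). Over all genes the median was 0.01, and 0.69% were higher and 1.56% lower by that fold. These are values of a cluster defined by its chromatin and singled out by its CD201 share, and they carry no test.

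Leaving out this cluster moved the scaled antibody ratios of tagged over untagged cells toward 0, from 0.08 to 0.04 for CD274 and from -0.15 to -0.09 for CD357. P2X7R was at -0.24 with and without it, and no gene was past 1.5-fold in either case.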

How the data were processed

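ATAC, gene expression and antibody libraries came from 1 pool of LT-HSCs. ATAC and RNA were processed by the authors with Cell Ranger ARC 2.0.2 on mm10, per the labels, and antibody tags with CITE-seq-Count (version: not given in the sources used here). Measurements were deposited as raw counts: fragments, totals for each barcode, and tag counts. The barcode file also holds the cell call, and a further file gives the tag sequence of each antibody.

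The cells and gene lists were chosen with earlier results of these data known. Fragments were summed per group over GENCODE M21 genes with 2 kb upstream (at least 500 fragments over both groups), over promoters of 1 kb on each side of the start, and over distal 1 kb windows (both at least 200). A prior of 0.5 entered each count of a log2 ratio. Past 1.5-fold is a rule of size, not a test. The genes named were those encoding antigens, pathway members with at least 200 fragments, the 10 genes, 5 promoters and 5 windows at each end by interval bound, and the ends and most accessible members of lists; any other gene was picked after its values were seen, Serpina5 and Foxo1 among them. Some members that the rule names are not reported here.

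ATAC clusters used 5 kb windows found in 1% or more of the cells, TF-IDF, 30 components less the first, 20 neighbours and Leiden at resolution 0.5 with seed 1. The ratio was tested on simulated data. Calculations ran in Python 3.11.15 with leidenalg 0.10.2, igraph 0.11.9, numpy 2.4.6, scipy 1.17.1, pandas 2.3.3, matplotlib 3.10.9 and statsmodels 0.14.6.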

Additional observations from a re-analysis of the deposited data

Results flagged for a closer look

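Signal outside the main measurement was seen in 2 places. On chromosome Y, 7607 fragments were found in these cells although the mice were female. They were level between the groups, at 198 FPM in CD201-tagged and 197 in untagged cells. The antibody library held 15768 tags that matched no antibody, with a mean of 4.62 per tagged and 4.22 per untagged cell. Neither enters a comparison above, and their sources were not tested.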

How the results depend on the processing

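Each group was part of 1 sample, so no value has a replicate check, and differences below about the widths of the intervals were not detectable. No paired analysis was possible because tagged and untagged cells came from 1 pool with no test between them. The 40 named genes, promoters and windows kept their direction under all 9 alternatives run on them, which share most of the cells on which they were chosen for that direction, but 9 of the 40 moved by more than their interval at 2 or more CD201 tags, such as Nptx2 from 0.41 to 0.06. With at least 2 CD201 tags, the share was 8.10%, 30 genes, 223 promoters and 421 distal windows were past 1.5-fold, 2 list medians were past 0.1, CD61 was at -0.023, CD274 at 0.18 and CD357 at -0.29 per remaining tag, the ratio of other tags was 0.26 and of ATAC fragments 0.0089 (log2), and the cluster shares ran from 6.45% to 11.5%. This group has 294 cells and fewer fragments by construction. With at least 20 tags the share was 33.0%, 30 distal windows were past the fold, CD274 was at 0.0566, and the log2 ratios of other tags and ATAC fragments were 0.11 and 0.0063. With depth matched, where the antibody depth counts CD274 itself, CD274 was at 0.0221. It was at 0.0556 without the deepest 5% of cells (with 1 list median past 0.1) and 0.0434 without cluster 6, where CD357 was at -0.089. The cause was not tested for these. At 1.2-fold 226 genes, 831 promoters and 2415 windows passed, and at 2-fold 1 promoter and 0 windows. With at least 200 fragments 22 genes passed 1.5-fold, and with at least 500 fragments 1 promoter and 0 windows. The lowest cluster share was 16.8% at resolution 1.0 and 18.99% with components 3 to 30. Scaling by promoter fragments moved the median of all genes from 0.01 to -0.01 and split promoters past the fold into 2 higher and 17 lower. Weighting the antibody counts by depth, leaving out cluster 6, standardising cluster shares by antibody depth and cluster shares without excess-overlap cells were chosen after seeing the data.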
